A study of Homo sapiens with 6 samples.

Results

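NF-kappaB is a family of paired transcription factors, and 10 of its genes were followed here in UE7T-9 cells that overexpress SHC4: the 5 subunit genes NFKB1, NFKB2, RELA, RELB and REL, the inhibitors and feedback genes NFKBIA, NFKBIE, TNFAIP3 and BIRC3, and the kinase gene IKBKB. They were chosen by name as the subunits and known regulators of the family, and all 10 were found among the 28181 genes of the files and had a mean above the filter on low values, which 23040 genes passed. UE7T-9 is a line of human mesenchymal stem cells from bone marrow that hTERT and the E7 gene of human papillomavirus keep dividing, and SHC4 is an adaptor protein that couples receptor tyrosine kinases to downstream signaling. RNA was sequenced in 3 libraries of cells infected with an SHC4 lentivirus (UE7T-9 SHC4) and in 3 control libraries (UE7T-9 Cont, the controls). The study's text gives UE7T-9 Cont a GFP vector, whereas the labels call those samples Nontarget, with the genotype WT. Both groups grew in DMEM and carry the same immortalizing genes. SHC4 was driven by the CMV promoter of the vector, and the infected cells were selected with puromycin. The study's design text speaks of cell clones, and whether the 3 libraries of a group came from separate clones, infections or cultures is not settled by the sources used here, so p-values measure the spread between these libraries. In bulk RNA, fewer cells that express a gene and less RNA per cell cannot be told apart.

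In resting cells the subunits are held in the cytoplasm by IkappaB proteins, of which NFKBIA encodes IkappaBalpha and NFKBIE encodes IkappaBepsilon. Receptors for TNF, IL-1 and microbial products switch on the IkappaB kinase complex, whose catalytic subunit IKKbeta is the product of IKBKB, and the phosphorylated IkappaB proteins are degraded. The freed subunits then switch on genes for chemokines and cytokines, and also NFKBIA, TNFAIP3 and BIRC3, which feed back on the pathway, so the mRNA of these feedback genes is widely read as a trace of pathway activity. In mesenchymal stem cells, NF-kappaB is known for its part in the secretion of inflammatory mediators.

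NF-kappaB binds a short DNA element, the kappaB motif, and the promoters of these genes were searched for its letters. RefSeq promoter windows on GRCh38.p14, of 300 bases (250 before the transcript start and 50 from it on), were at hand for 7 of the 10 genes, in 11 windows. RELB, NFKBIE and IKBKB had no entry. The motif, a consensus of 10 letters, was looked for on both strands, and matches that overlapped on opposite strands were merged. It was found in 7 of the 11 windows (63.6%), against 11.3% of all 35116 windows of that length. By gene, 6 of the 7 held a match in at least 1 window, against 13.3% of 27305 genes, and the exception was RELA, with none in either of its windows. Of the genes that NF-kappaB is known to induce, a list described further on, 15 of 27 with a window held a match (55.6%). A match is a description of the letters, and binding was not measured.

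The 5 windows printed here stand for the 3 feedback genes with an entry, a subunit gene with 2 matched stretches and the subunit gene with none. Each is written 5′ to 3′ in the direction of its gene, with the kappaB matches in capitals. The window of NFKBIA is chr14:35404700-35404999 (minus strand, match 81 bases before the start). That of TNFAIP3 is chr6:137867009-137867308 (plus strand, matches 67 and 55 bases before the start). That of BIRC3 is chr11:102317234-102317533 (plus strand, matches 199 and 135 bases before the start). For NFKB2 the window is chr10:102394328-102394627 (plus strand, stretches 107 and 78 bases before the start), and for RELA it is chr11:65662867-65663166 (minus strand, no match).
NFKBIA: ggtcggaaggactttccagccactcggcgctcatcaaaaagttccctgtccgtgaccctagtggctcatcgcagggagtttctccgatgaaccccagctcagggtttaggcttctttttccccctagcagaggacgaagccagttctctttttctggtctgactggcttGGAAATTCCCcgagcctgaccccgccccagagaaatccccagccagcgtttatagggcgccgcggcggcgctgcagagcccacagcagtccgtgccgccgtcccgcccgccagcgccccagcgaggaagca
TNFAIP3: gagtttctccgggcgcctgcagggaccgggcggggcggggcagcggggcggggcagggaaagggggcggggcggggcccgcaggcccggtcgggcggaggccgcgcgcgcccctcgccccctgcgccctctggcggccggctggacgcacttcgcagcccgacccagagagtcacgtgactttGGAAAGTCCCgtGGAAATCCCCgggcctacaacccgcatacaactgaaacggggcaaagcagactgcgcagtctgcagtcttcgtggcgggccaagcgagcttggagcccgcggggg
BIRC3: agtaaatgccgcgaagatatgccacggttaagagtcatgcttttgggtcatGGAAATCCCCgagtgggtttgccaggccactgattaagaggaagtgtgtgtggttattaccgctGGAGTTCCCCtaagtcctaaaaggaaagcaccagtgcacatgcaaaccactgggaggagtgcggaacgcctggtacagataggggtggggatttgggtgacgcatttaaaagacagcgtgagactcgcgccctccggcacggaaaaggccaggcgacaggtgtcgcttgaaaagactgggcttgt
NFKB2: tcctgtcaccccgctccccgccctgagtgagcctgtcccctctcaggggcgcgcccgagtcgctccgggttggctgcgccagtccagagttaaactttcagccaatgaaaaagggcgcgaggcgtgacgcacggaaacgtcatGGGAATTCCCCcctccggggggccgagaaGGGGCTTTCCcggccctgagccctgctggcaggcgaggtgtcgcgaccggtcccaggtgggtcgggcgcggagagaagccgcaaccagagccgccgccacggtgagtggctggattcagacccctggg
RELA: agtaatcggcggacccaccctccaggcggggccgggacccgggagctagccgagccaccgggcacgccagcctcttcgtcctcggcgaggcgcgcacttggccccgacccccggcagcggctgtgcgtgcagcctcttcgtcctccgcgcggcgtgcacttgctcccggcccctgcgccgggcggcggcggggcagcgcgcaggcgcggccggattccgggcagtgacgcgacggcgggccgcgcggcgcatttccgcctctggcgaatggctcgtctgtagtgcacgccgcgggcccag

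The recovered depth was 18144993 to 27721397 reads per library, and 3 reads correspond to a normalized count of 2.50 to 3.53. The normalized count of SHC4 itself was 56.5, 157 and 130 in the controls, against 134870, 119166 and 155006 in UE7T-9 SHC4, so the labels matched the overexpressed gene. The mesenchymal markers NT5E, THY1, ENG, PDGFRB and VIM were abundant in all 6 libraries, with normalized counts between 1487 and 32972, and LEPR had 398 to 1699. Defining markers of leukocytes (PTPRC, 0 to 6.82), endothelial cells (CDH5, 0 to 1.18) and epithelial cells (EPCAM, 0 to 4.92) lay at or near 0, while other markers on those lists had reads, among them HLA-DRA (72.8 to 262), CD14 (52.7 to 88.3), VWF (34.4 to 65.3) and KRT18 (3.33 to 112). With limma on log2(normalized count + 1), 15 genes were called at an adjusted p below 0.05, 13 higher and 2 lower in UE7T-9 SHC4, which is 0.0651% of the genes tested. The count depended on single libraries. It was 1311 without UE7T-9 Cont replicate 1, 6 without UE7T-9 Cont replicate 2, 67 without UE7T-9 SHC4 replicate 1, and 2 without UE7T-9 SHC4 replicate 2 or replicate 3. At an unadjusted p below 0.05, limma had 3323 genes, or 14.4%. DESeq2 on the recovered reads called 669 of 16153 genes, or 4.14%, and edgeR called 11 of 15859.

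None of the 10 NF-kappaB genes was called. The limma fit gave 0 of 10, with 0 at an unadjusted p below 0.05 and a smallest adjusted p of 0.435, that of RELA. DESeq2 and edgeR also called 0 of 10, each with 0 at an unadjusted p below 0.05. Without UE7T-9 Cont replicate 1, where limma called 5.68% of all genes, the count of members was again 0. On the log2 scale 4 members had a positive and 6 a negative fitted difference, with a median of -0.02, beside -0.0040 over all genes tested. The fitted difference lay within 0.25 of zero for 9 of the 10, as it did for 61.7% of the 11521 genes whose mean normalized count reached 100. A p above the threshold does not show equal levels, and the intervals give what the data allow. In the limma fit of all libraries, the 95% interval excluded a change of 1.5-fold in either direction for 8 of the 10 genes, all but TNFAIP3 and BIRC3. Intervals were computed for that fit only. With single libraries left out, the log2 fold change of REL, for example, ranged from -0.14 to 0.20.

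**Figure D1:**
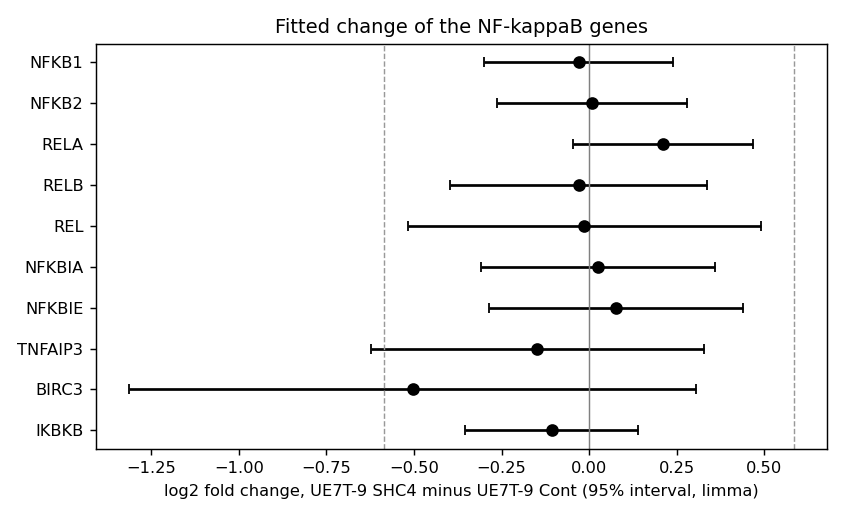
Fitted log2 fold change of each NF-kappaB gene, UE7T-9 SHC4 minus UE7T-9 Cont (points, limma on log2(normalized count + 1)), with 95% intervals as bars and dashed lines at a change of 1.5-fold. All 10 intervals cross 0, and those of TNFAIP3 and BIRC3 pass the lower dashed line.

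The subunits with the DNA-binding and dimerization domain are made from 5 genes. NFKB1 (ENSG00000109320, chr4:102501329-102617302, plus strand) encodes the precursor p105, which is processed to p50. It had normalized counts of 1448, 1262 and 1446 in the controls, against 1326, 1452 and 1290.2 in UE7T-9 SHC4. The values of both groups overlapped. The means were 1385 ± 107 and 1356 ± 85.2 (SD, n = 3 each), and the log2 fold change was -0.03 (SE 0.12, 95% interval -0.30 to 0.24, limma adjusted p = 0.936). NFKB2 (ENSG00000077150, chr10:102394110-102402529, plus strand) encodes p100, the precursor of p52, which serves the alternative pathway. Its normalized counts were 1140.5, 1094 and 1157 in the controls, against 1259, 1116 and 1042 in UE7T-9 SHC4. UE7T-9 SHC4 replicates 1 and 3 were the highest and lowest of the 6 libraries, on either side of the controls. The log2 fold change of NFKB2 was 0.01 (95% interval -0.26 to 0.28, limma adjusted p = 0.984).

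RELA, RELB and REL encode the subunits that carry a transactivation domain. RELA (ENSG00000173039, chr11:65653596-65663094, minus strand), which encodes p65, had normalized counts of 1004, 938 and 937 in the controls, against 1182, 1069.6 and 1083 in UE7T-9 SHC4. Each UE7T-9 SHC4 library lay above each control. The means were 959.6 ± 38.5 and 1112 ± 61.4 (SD, n = 3 each), with a log2 fold change of 0.21 (SE 0.11, 95% interval -0.05 to 0.47). Its adjusted p was 0.435 by limma, 0.471 by DESeq2 and 0.324 by edgeR, so the separation of the groups did not pass a test across all genes. RELB (ENSG00000104856, chr19:45001430-45038198, plus strand), the partner of p52, had 338, 338 and 309 in the controls, against 381, 324 and 269 in UE7T-9 SHC4. Its libraries were close in the controls (a coefficient of variation of 5.13%) and farther apart in UE7T-9 SHC4 (17.2%), and the log2 fold change was -0.03 (95% interval -0.40 to 0.34, limma adjusted p = 0.952). REL (ENSG00000162924, chr2:60881521-60931610, plus strand), the subunit best known from lymphocytes, had 136, 211 and 131 in the controls, against 141, 151 and 172 in UE7T-9 SHC4. UE7T-9 Cont replicate 2 stood above the other 5 libraries. The log2 fold change of REL was -0.01 (95% interval -0.52 to 0.49, limma adjusted p = 0.984), and 0.20 without that library.

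**Figure D2:**
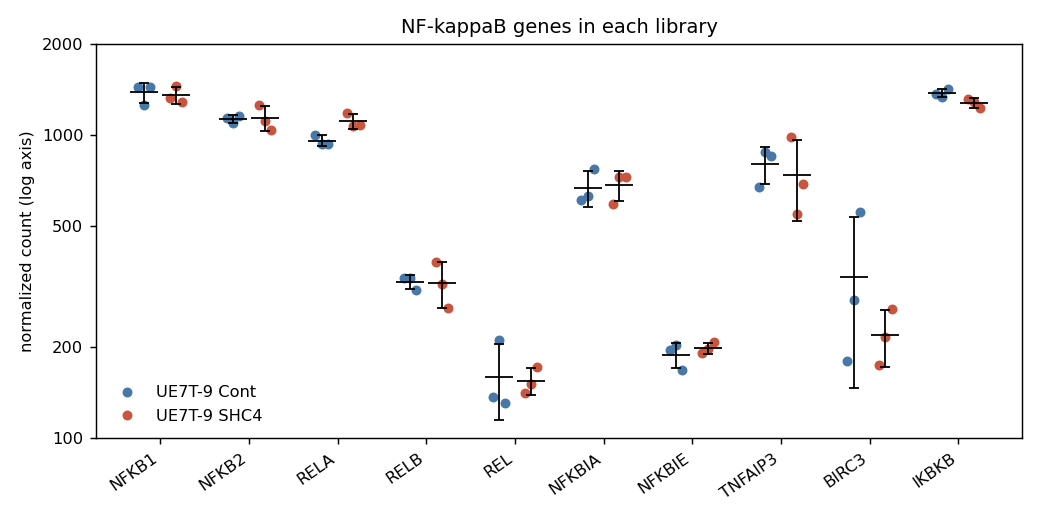
Normalized counts of the 10 NF-kappaB genes in each library of UE7T-9 Cont and UE7T-9 SHC4, with the group mean and SD. The groups overlap for 8 of the genes, RELA lies higher and IKBKB lower in all 3 UE7T-9 SHC4 libraries, and UE7T-9 Cont replicate 3 stands apart for BIRC3 at 557.

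Among the inhibitors, NFKBIA (ENSG00000100906, chr14:35401511-35404749, minus strand) had normalized counts of 609, 629.8 and 774 in the controls, against 592, 725 and 730.1 in UE7T-9 SHC4. The lowest library was of UE7T-9 SHC4 and the highest was a control. The means were 671 ± 89.9 and 682 ± 78.1 (SD, n = 3 each), the log2 fold change was 0.03 (SE 0.15, 95% interval -0.31 to 0.36) and the adjusted p was 0.955 by limma. For NFKBIA, whose promoter match is printed above, the interval corresponds to 0.808-fold to 1.28-fold of the control level. NFKBIE (ENSG00000146232, chr6:44258166-44265788, minus strand) had 195, 202 and 168 in the controls, against 191, 197 and 207 in UE7T-9 SHC4. UE7T-9 Cont replicate 3, the highest library of the 6 for NFKBIA, was the lowest for NFKBIE. The log2 fold change of NFKBIE was 0.08 (95% interval -0.29 to 0.44, limma adjusted p = 0.866).

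TNFAIP3 (ENSG00000118503, chr6:137867188-137883312, plus strand) encodes A20, a ubiquitin-editing enzyme that switches the pathway off. Its normalized counts were 674, 878 and 857 in the controls, against 983, 549 and 691 in UE7T-9 SHC4. The highest and the lowest library both belonged to UE7T-9 SHC4. The means were 803 ± 112 and 741 ± 222 (SD, n = 3 each), with a log2 fold change of -0.15 (SE 0.21, 95% interval -0.62 to 0.33, limma adjusted p = 0.792). The value was 0.05 without UE7T-9 SHC4 replicate 2 and -0.37 without UE7T-9 SHC4 replicate 1, so the direction rested on single libraries.

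BIRC3 (ENSG00000023445, chr11:102317450-102339403, plus strand) encodes cIAP2, a ubiquitin ligase of the TNF receptor complex. It had normalized counts of 180.3, 285 and 557 in the controls, against 174, 216 and 267 in UE7T-9 SHC4. UE7T-9 Cont replicate 1 lay within the range of the SHC4 libraries, and UE7T-9 Cont replicate 3 lay far above every other library. The highest control was 3.09 times the lowest, whereas the ratio was 1.53 in UE7T-9 SHC4. The means were 341 ± 194 and 219 ± 46.4 (SD, n = 3 each), with a log2 fold change of -0.50 (SE 0.36, 95% interval -1.31 to 0.30), the largest fitted difference of the 10. Its adjusted p was 0.559 by limma, 0.399 by DESeq2 and 0.431 by edgeR. The log2 fold change was -0.88 without UE7T-9 Cont replicate 1 (limma adjusted p = 0.104) and -0.07 without UE7T-9 Cont replicate 3, so its size was set by which control was kept.

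IKBKB (ENSG00000104365, chr8:42271302-42332653, plus strand), the kinase gene, had normalized counts of 1369.6, 1339 and 1421 in the controls, against 1320.0, 1289 and 1225 in UE7T-9 SHC4. All 3 UE7T-9 SHC4 libraries lay below all 3 controls, but the gap between the nearest pair was small, 1320.0 against 1339. The means were 1377 ± 41.9 and 1278 ± 48.4 (SD, n = 3 each), with a log2 fold change of -0.11 (SE 0.11, 95% interval -0.35 to 0.14, limma adjusted p = 0.698). RELA and IKBKB were the 2 members of 10 whose groups did not overlap, beside 19.3% of all genes tested, so the count was near the background. Another scaling changed it. With library size scaling only IKBKB was left without overlap, and with TMM scaling only RELA.

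Libraries could also be compared through the deviation of each gene from its own mean. The mean profile of the 10 genes moved little, from -0.08 in UE7T-9 Cont replicate 1 to 0.11 in UE7T-9 Cont replicate 3 on the log2 scale, with 0.00, -0.05 and -0.02 in UE7T-9 SHC4. The largest deviations of single genes were those of BIRC3, at 1.11 in UE7T-9 Cont replicate 3, -0.56 in UE7T-9 SHC4 replicate 1 and -0.51 in UE7T-9 Cont replicate 1. TNFAIP3 in UE7T-9 SHC4 replicate 2 (-0.46) and REL in UE7T-9 Cont replicate 2 (0.44) came next. The feedback genes did not share a high library. BIRC3 and NFKBIA were highest in UE7T-9 Cont replicate 3, TNFAIP3 in UE7T-9 SHC4 replicate 1 and NFKBIE in UE7T-9 SHC4 replicate 3. The median residual SD of the members was 0.144 on the log2 scale, beside 0.189 for genes whose mean reached 100. The 5 genes whose profile was nearest to the mean profile of the members were TBC1D20, NUB1, C17orf80, FRG1CP and TRAPPC10, with root mean square differences of 0.0152 to 0.0270 over the 6 libraries. The profile was a common one, as 9.0% of the 12668 genes compared lay within 0.1 of it, so the names mark no particular likeness.

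**Figure D3:**
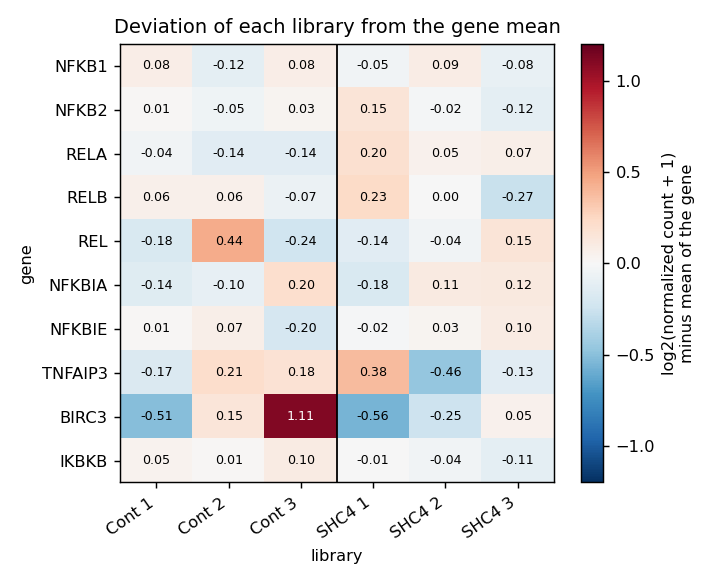
Deviation of each NF-kappaB gene (rows) from its own mean over the 6 libraries (columns), on the log2(normalized count + 1) scale. Most cells lie near 0, and the strongest is BIRC3 in UE7T-9 Cont replicate 3 at 1.11.

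Levels were compared between genes as normalized count per kb of annotated exon. That length merged the annotated exons of all transcripts of a gene, 2373 bases for NFKBIA, against 11241 for IKBKB and 13170 for REL. A gene whose main transcript uses only part of them is set too low. The order and the subunit shares given further on depend on this, whereas the comparison of groups within a gene does not. NFKBIA was first, with 283 ± 37.9 in the controls, against 288 ± 32.9 in UE7T-9 SHC4 (SD, n = 3 each). It was followed by NFKB2 (252 ± 7.31 and 254 ± 24.6), NFKB1 (221 ± 17.1 and 217 ± 13.6) and RELA (176 ± 7.04 and 203 ± 11.2). In the middle of the order came TNFAIP3 (159 ± 22.3 and 147 ± 43.9), IKBKB (122 ± 3.73 and 114 ± 4.30) and RELB (108 ± 5.55 and 107 ± 18.4). NFKBIE (73.1 ± 6.98 and 76.9 ± 3.23), BIRC3 (45.3 ± 25.8 and 29.1 ± 6.17) and REL (12.1 ± 3.39 and 11.7 ± 1.23) were the lowest. Over the 6 libraries, the lowest value of NFKB2 was above the highest of NFKB1, and the same held for RELB over NFKBIE and for BIRC3 over REL, while the values of all other neighbours in the order overlapped. The step from NFKB2 to NFKB1 was narrow, 232.4 against 232.1 for the nearest libraries. Some exon sequence is shared with other genes. RELA overlaps the antisense gene RELA-DT by 9 bases, TNFAIP3 overlaps the antisense gene WAKMAR2 by 95 bases, and 5702 bases of REL exon lie also in ENSG00000267520 on the same strand, so it is uncertain how reads of that stretch of REL were assigned.

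Within a library the make-up of the subunit mRNA was similar in both groups. Of the summed normalized count per kb of the 5 subunits, NFKB2 took 32.8% ± 0.633 in the controls, against 32% ± 1.06 in UE7T-9 SHC4 (SD, n = 3 each), and NFKB1 took 28.8% ± 1.48 and 27.4% ± 2.11. RELA took 23.2%, 23.1% and 22.2% in the controls, against 25.6%, 24.6% and 26.8% in UE7T-9 SHC4. All UE7T-9 SHC4 libraries lay above the controls, with means of 22.8% ± 0.552 and 25.7% ± 1.11 (SD, n = 3 each). RELB took 14.1% ± 0.885 and 13.4% ± 1.42, and REL took 1.58% ± 0.491 and 1.49% ± 0.258. The ratio of RELB to RELA per kb was 0.607, 0.648 and 0.594 in the controls, against 0.580, 0.545 and 0.447 in UE7T-9 SHC4. This ratio, 1 of 5 that were computed, did not overlap between the groups. Of all genes tested, 19.3% did not overlap in their own values, so 1 of 5 was near the background. RELA enters both its share and this ratio, so they are not separate from its own values. The ratios of NFKB2 to NFKB1, REL to RELA, NFKBIA to RELA and NFKBIE to NFKBIA overlapped.

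**Figure D4:**
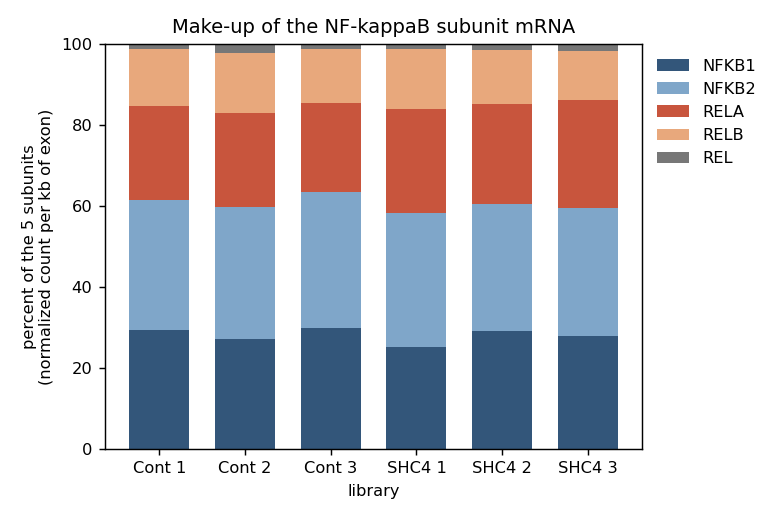
Share of each subunit gene in the summed normalized count per kb of exon of NFKB1, NFKB2, RELA, RELB and REL, in percent, with 1 bar per library. RELA takes 22.2% to 23.2% in the controls, against 24.6% to 26.8% in UE7T-9 SHC4, and REL takes at most 2.15% in any library.

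The genes upstream of the subunits were counted from lists. Of 26 genes for kinases and adaptors, which carry the signal from receptors to the IkappaB kinase complex, 10 had a positive and 16 a negative fitted difference. The median of the list was -0.03 on the log2 scale, beside -0.0040 over all genes, and limma called 0. At an unadjusted p below 0.05 there were 3 of 26, beside 14.4% of all genes, and edgeR called 0 in this and each of the other lists of the pathway. MALT1, the paracaspase that cleaves regulators of the pathway, had normalized counts of 706, 748 and 634 in the controls, against 903, 1017 and 1109.8 in UE7T-9 SHC4 (log2 fold change 0.54, adjusted p = 0.166 by limma and 0.0323 by DESeq2). RBCK1, a subunit of the linear ubiquitin ligase, had 2683 ± 448 and 1903 ± 282 (SD, n = 3 each; limma adjusted p = 0.228). CHUK, the gene of IKKalpha and partner of IKBKB, had 907, 1107 and 1489 in the controls, against 812, 848 and 883 in UE7T-9 SHC4 (limma adjusted p = 0.309). The groups of CHUK did not overlap, and UE7T-9 Cont replicate 3 was the highest library, as it was for BIRC3. Among 18 other IkappaB proteins and restraints, 8 differences were positive and 10 negative, with a median of -0.08, and limma called 0. At an unadjusted p below 0.05 there was 1 of 18, beside 14.4% of all genes. That gene was TNIP3, an A20-binding protein near the detection limit, with 14.6, 9.42 and 10.8 against 3.52, 2.50 and 5.82. BCL3 (448 ± 174 and 602 ± 44.1) and NFKBID (93.3 ± 7.50 and 119 ± 8.69), both nuclear IkappaB proteins, had limma adjusted p-values of 0.386 and 0.444. BCL3 was called higher without UE7T-9 Cont replicate 1, where 5.68% of all genes were called, and in no other fit with a library left out.

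Of 18 receptor genes 16 were tested, 7 with a positive and 9 with a negative difference, and the median log2 fold change was -0.41. Limma called 0, with 6 of 16 at an unadjusted p below 0.05 (14.4% of all genes), of which 5 were lower. IL1RAP, the accessory chain of the IL-1 receptor, had normalized counts of 605, 749.9 and 768 in the controls, against 408, 414 and 476 in UE7T-9 SHC4 (log2 fold change -0.70, adjusted p = 0.117 by limma and 0.00516 by DESeq2). IL1RAP was the single receptor DESeq2 called of the 14 it tested, beside 4.14% of all genes. TLR3, a receptor for double-stranded RNA, had 1033, 2038 and 2107 in the controls, against 629, 989 and 1204 in UE7T-9 SHC4. Its groups overlapped at UE7T-9 Cont replicate 1, and its adjusted p was 0.263 by limma. CD40 was at 0, 0 and 4.92 in the controls, against 15.8, 6.66 and 4.66 in UE7T-9 SHC4, few reads in any library. Without UE7T-9 Cont replicate 1, where 5.68% of all genes were called, limma called 6 of 16 receptors, all lower, which were IL1RAP, TLR1, TLR3, TLR4, TLR6 and NGFR. With any other single library left out, limma called 0 receptors.

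Ligand genes were sparse, and TNF, TNFSF11, CD40LG and EDA were not found among the genes with values here. Of the 13 on the list 9 were tested, 2 with a positive and 7 with a negative difference, and limma called 0. At an unadjusted p below 0.05 there was 1 of 9, beside 14.4% of all genes. The median log2 fold change was -0.66 and was not stable. It was -1.35 without UE7T-9 Cont replicate 1, -0.18 without UE7T-9 Cont replicate 2 (8 genes tested), 0.23 without UE7T-9 Cont replicate 3 (7 genes tested) and -0.996 without UE7T-9 SHC4 replicate 3. TNFSF12, the gene of TWEAK, had normalized counts of 321, 264 and 201 in the controls, against 392, 569 and 555 in UE7T-9 SHC4. Its groups were apart, with a log2 fold change of 0.95 and an adjusted p of 0.146 by limma and 0.00791 by DESeq2. DESeq2 called 1 of the 6 ligands it tested, beside 4.14% of all genes. TNFSF13B, which encodes BAFF, had 52.6, 208 and 189.9 in the controls, against 51.0, 66.6 and 86.2 in UE7T-9 SHC4 (limma adjusted p = 0.414). TNFSF14 was at 2.92, 0 and 5.90 in UE7T-9 Cont and at 0 in UE7T-9 SHC4, which is near the level of 3 reads. Without UE7T-9 Cont replicate 1, where 5.68% of all genes were called, limma called 2 of 9 ligands, TNFSF12 higher and TNFSF13B lower. No ligand was called with another library left out.

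Genes that NF-kappaB is known to induce were the widest list, with 35 of 38 tested. The fitted difference was positive for 10 and negative for 25, the median log2 fold change was -0.44, and limma called 0. The size of the median depended on the genes and libraries kept. It was -0.21 over the 30 genes with a mean of 10 or more and -0.29 without UE7T-9 SHC4 replicate 3. For the fold changes of edgeR itself, over the 28 genes it tested, the median was -0.18. It was -0.51 without UE7T-9 Cont replicate 1 and -0.54 with library size scaling, which shifted all genes down. At an unadjusted p below 0.05 there were 10 of 35, 2 higher and 8 lower, beside 14.4% of all genes, and the groups did not overlap for 10 of the 35, beside 19.3%. DESeq2 called 7 of 30 (4.14% of all genes), EBI3, IER3, CXCL3, CXCL8, CCL5 and MMP3 lower and SOD2 higher, and edgeR called 0 of 28. CXCL5, a neutrophil chemokine, had normalized counts of 6.82, 9.42 and 19.7 in the controls, against 0, 0 and 1.16 in UE7T-9 SHC4 (limma adjusted p = 0.116). EBI3, a subunit of IL-27 and IL-35, had 100.4, 112 and 280.4 against 51.0, 30.8 and 36.1 (log2 fold change -1.90, adjusted p = 0.123 by limma and 0.000459 by DESeq2). IER3, an early response gene that acts on cell survival, had 1553, 2652 and 1952 against 845, 647 and 1339 (log2 fold change -1.15, adjusted p = 0.156 by limma and 0.00856 by DESeq2). For these 3 genes every control lay above every UE7T-9 SHC4 library.

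CXCL8, CCL5, SOD2, ICAM1, VCAM1 and CCL2 were picked from the list after their values were seen. The chemokine CXCL8 had normalized counts of 12.7, 191 and 91.5 in the controls, against 3.52, 7.49 and 12.8 in UE7T-9 SHC4. CCL5, also a chemokine, had 18.5, 201 and 644 in the controls, against 7.91, 7.49 and 19.8 in UE7T-9 SHC4. In both, UE7T-9 Cont replicate 1 lay within the range of UE7T-9 SHC4, as it did for BIRC3. SOD2, the mitochondrial superoxide dismutase, had 3688, 3725 and 3223 in the controls, against 4055, 9438 and 8935 in UE7T-9 SHC4, so that UE7T-9 SHC4 replicate 1 was close to the controls. The adhesion molecules went the other way from CXCL8 and CCL5 in their fitted differences, which were 0.53 for ICAM1 and 0.71 for VCAM1 on the log2 scale (limma adjusted p = 0.254 and 0.355). For these 2 genes too, UE7T-9 Cont replicate 1 lay within the range of UE7T-9 SHC4. It had 461 for ICAM1, against 455 to 552, and 472 for VCAM1, against 411 to 476. CCL2, the chemokine of the list with the highest counts, was also positive at 0.18 (limma adjusted p = 0.738), whereas the other chemokines tested were negative. Without UE7T-9 Cont replicate 1, limma called 10 of the 35 induced targets, beside 5.68% of all genes. Of these, CXCL5, CXCL8, CCL5, LIF, IER3, MMP3 and EBI3 were lower and ICAM1, VCAM1 and PTX3 were higher. The members of the family were not called in that fit, although BIRC3 had its lowest adjusted p there. With any other single library left out, limma called 0 of the induced targets, except SOD2 (higher) without UE7T-9 SHC4 replicate 1.

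**Figure D5:**
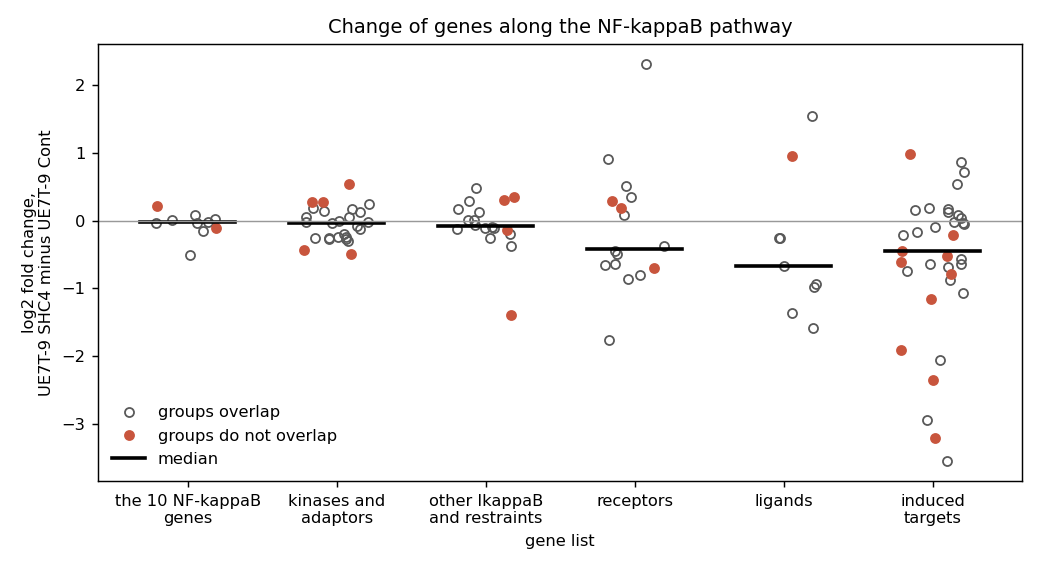
Fitted log2 fold changes (UE7T-9 SHC4 minus UE7T-9 Cont, limma) of the members and of the other pathway lists, with 1 point per gene (filled where the groups do not overlap) and a bar at the median of each list. The members lie between -0.50 and 0.21, and the induced targets have a median of -0.44, which is -0.21 over those with a mean of 10 or more.

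Markers of other cell types were set beside these lists. Of the 4 epithelial markers all had a negative fitted difference, and their summed normalized counts were 68.3 to 166 in the controls, against 13.3 to 64.2 in UE7T-9 SHC4. KRT18 (41.9, 37.7 and 112 against 21.1, 3.33 and 3.49) was called lower by DESeq2, and EPCAM was at 0 to 4.92. That was 1 of the 3 epithelial markers DESeq2 tested, beside 4.14% of all genes. The leukocyte markers summed to 183 to 382 in the controls, against 225 to 311 in UE7T-9 SHC4, with 1 of 5 tested higher and 0 called. Endothelial markers summed to 58.0 to 78.9 and 49.2 to 96.7, with 1 of 3 tested higher and 0 called. The mesenchymal markers summed to 51928 to 62089 and 59349.5 to 70745, with 5 of 6 higher. DESeq2 called 2 of 6, LEPR and PDGFRB, both higher, beside 4.14% of all genes. In both, UE7T-9 Cont replicate 1 was the control nearest to UE7T-9 SHC4. THY1 had 7742 in that library, within the range of UE7T-9 SHC4 (7512 to 9570), against 2940 and 2286 in the other controls. The part of these markers in the values of the pathway lists was not tested.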

How the data were processed

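Total RNA of 3 UE7T-9 Cont and 3 UE7T-9 SHC4 samples (RNeasy, NEBNext Ultra libraries) was sequenced by Novogene (NovaSeq). The authors deposited 1 signal per gene and library, a normalized count (the gene's count divided by a size factor per library). The submitters' processing notes name HISAT2 2.0.5, featureCounts 1.5.0-p3 and DESeq2. The genome build, annotation and strand setting are not given in the sources used here. All values were whole multiples of 1 read (100%, tolerance 0.01 reads), and the reads were recovered by division. Intervals and the floor of 3 reads cover counting error only where they rest on reads.

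Groups and replicate numbers came from the labels. Genes were compared in limma 3.58.1 (R 4.3.3, mean-variance trend in eBayes) as log2(normalized count + 1). The fit took the 23040 genes whose mean reached 1 and left out 5141 others, and p-values were adjusted over all of them by the Benjamini-Hochberg method. Fold changes are on this scale, which understates those of low genes. DESeq2 1.42.0 and edgeR 4.0.16 (quasi-likelihood) were run on the recovered reads as alternatives, beside library size and TMM scaling, other filters, a pseudocount of 0.1, a replicate block and leaving out each library. Counts over the other pathway lists under these alternatives were added after seeing the data.

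Symbols, positions and exon lengths were matched by Ensembl identifier to GENCODE 29 on GRCh38. Where SOD2 had several identifiers, the one with the higher mean was used. The text names the 10 members, SHC4, the genes called by limma and the 3 with the smallest limma p of each pathway list, and the 5 genes nearest in profile. Any other gene was named after its values were seen. The members and lists were chosen with earlier results of these data known.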

Additional observations from a re-analysis of the deposited data

How the results depend on the processing

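No NF-kappaB gene was called under any alternative. Of 140 values (10 genes, 14 alternatives each), 122 kept their direction and 18 changed sign, in 7 genes, and the smallest adjusted p was 0.104 (BIRC3 without UE7T-9 Cont replicate 1, limma). Library size scaling, which shifted the median of all genes by -0.10 on the log2 scale, gave log2 fold changes of -0.10 (-0.0957) for NFKB2, -0.08 (-0.0771) for NFKBIA and -0.03 (-0.0257) for NFKBIE. Leaving out single libraries, the log2 fold change ranged from -0.095 to 0.0057 for NFKB1, -0.067 to 0.069 for NFKB2, -0.15 to 0.097 for RELB, -0.14 to 0.20 for REL, -0.040 to 0.13 for NFKBIA, -0.0028 to 0.13 for NFKBIE and -0.37 to 0.048 for TNFAIP3. The range was 0.17 to 0.24 for RELA, -0.88 to -0.07 for BIRC3 and -0.13 to -0.08 for IKBKB. The number of members without overlap was 2, and it was 1 with library size scaling or TMM scaling and 3 without UE7T-9 Cont replicate 1 or replicate 2. The share over all genes, 19.3% in the main setting, was not computed for these alternatives. A group of 2 libraries is separated more easily, so the rise to 3 was not read as a result about the members.

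Over all genes, 15 were called by limma, 669 by DESeq2, 28 with library size scaling, 25 with TMM scaling, 43 without a filter on low values and 2 to 1311 with a library left out. The replicate block gave 47 genes and no member, and changed 1 call in the pathway lists, that of TLR3. BIRC3, lower in UE7T-9 SHC4 in each same-numbered pair, had a limma p of 0.042 and an adjusted p of 0.267 with the block. The correlation of deviations between same-numbered libraries was 0.148, 0.013 and -0.0070 over the 23040 genes tested, so the numbers were not taken as pairs. Over the 12678 genes with a mean of 50 or more it was 0.409, 0.146 and 0.149. In both sets of genes UE7T-9 Cont replicate 2 went most closely with UE7T-9 SHC4 replicate 3 (0.0992 and 0.517), not with its own number. Whether the numbers mark pairs is not stated in the labels.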
